A study of Mus musculus with 4 samples.

Results

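The immediate-early genes described here are 36 named genes of the 32285 genes listed for cultured mouse pancreatic islets: the AP-1 genes Fos, Fosb, Fosl1, Fosl2, Jun, Junb and Jund, the zinc-finger genes Egr1, Egr2, Egr3, Klf2, Klf4, Klf6 and Klf10, the nuclear receptors Nr4a1, Nr4a2 and Nr4a3, the regulators Ier2, Ier3, Ier5, Btg1, Btg2, Zfp36, Zfp36l1, Dusp1, Dusp2, Gem and Sik1, and the factors Atf3, Maff, Per1, Crem, Cebpb, Cebpd, Myc and Npas4. They were listed by name, with no threshold on their values, though earlier results of these data were known when the list was made. All 36 were found among the deposited genes and in GENCODE M21, where 36 are protein coding. The study placed islets of Malat1 null mice and of wild-type C57BL/6 mice in culture with TCDD (a dioxin that binds the aryl hydrocarbon receptor) or with its solvent DMSO, and released the cells with Accutase before single-cell RNA sequencing with 10x 3-prime version 3 chemistry. Of the 4 samples, the groups used here were Malat1-null islets with TCDD and wild-type islets with TCDD, with 1 library each; the DMSO samples were not analysed here, so no value below shows an effect of TCDD. The dose and time of TCDD are not given in the labels. Every cell of the Malat1-null library carries the deletion, in islet and blood cell types alike, and neither the number of animals per library nor pooling is given in the labels.

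Immediate-early genes are transcribed within minutes of a stimulus, without new protein synthesis, from promoters that serum response factor, CREB and related factors already occupy. Fos and Jun proteins pair to form AP-1, a DNA-binding dimer, while Egr1 and the Klf and Nr4a proteins bind their own sites, and Dusp1, Zfp36 and Ier2 belong to the feedback that ends the response. In beta cells, glucose, calcium and cyclic AMP are known inducers of Fos, Egr1, Nr4a1 and Npas4. Enzymatic dissociation of tissue is known to induce the same genes in many cell types. Its part in the levels below was not tested.

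The Malat1-null library held 134950186 UMIs and the wild-type library 81872519, and 3198 and 2166 barcodes carried at least 1000 UMIs, with medians of 34038 and 26116. A single barcode was common to both. After removal of barcodes with over 20% mitochondrial UMIs and of called doublets, 2905 Malat1-null and 2074 wild-type cells were clustered without the 36 genes. The doublet caller marked 0.219% of Malat1-null barcodes and so cannot be relied on there. Levels are given as CPM, which here means UMIs per 1000000 UMIs of all genes other than islet hormones, acinar enzymes, mitochondrial genes and Malat1; these remaining genes made up 35.0% of the UMIs of Malat1-null and 39.8% of those of wild-type beta-like cells (named below by their markers). Malat1 itself was at 0.277 per 1000000 UMIs in Malat1-null beta-like cells and 9699.8 in wild-type beta-like cells. Although the labels call the samples beta cells, 1774 Malat1-null cells (61.1%) and 776 wild-type cells (37.4%) were beta-like, and all 10 beta markers reached at least 20 CPM in both. The classes with at least 20 cells in each library were, besides beta-like, T or NK-like (156 Malat1-null and 295 wild-type cells), B cell-like (229 and 155), acinar-like (42 and 266), endothelial-like (39 and 87) and alpha-like (80 and 30). With 1 library per genotype no test between genotypes was possible, and genotype, library and islet preparation cannot be told apart. Intervals are exact 95% intervals and cover counting error only, not the spread between animals. Those of levels and ratios also leave out the spread of UMIs between cells.

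In beta-like cells the 36 genes summed to 4450 CPM in Malat1-null and 5359 CPM in wild type. Fosb, Fos and Jun were the measured members furthest apart, all lower in Malat1-null cells, while Nr4a2 and Cebpb were modestly higher. A member was called apart on 3 conditions: it reached 10 CPM in either library with 20 UMIs in total, its level differed more than 1.5-fold, and the interval of its ratio did not include 1. Of the 28 members that met these minimums, 6 were lower and 2 higher in Malat1-null cells, beside 2.49% lower and 1.94% higher among the 9240 genes measured (4.43% in either direction). Members just inside and just outside the limit were Nr4a2 at a ratio of 1.51 and Junb at 1.499. The median log2 ratio was -0.09 over the 28 members and 0.01 over all genes measured. Scaled to all UMIs, 7 members were lower and 0 higher, with the median of all genes itself at -0.17. With edgeR's TMM factors 5 were lower and 4 higher, with that median at 0.04. The shares of 2.49% and 1.94% belong to the first scaling alone. Fos, Fosb, Jun, Klf4 and Klf6 were lower under each of these scalings.

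**Figure D1:**
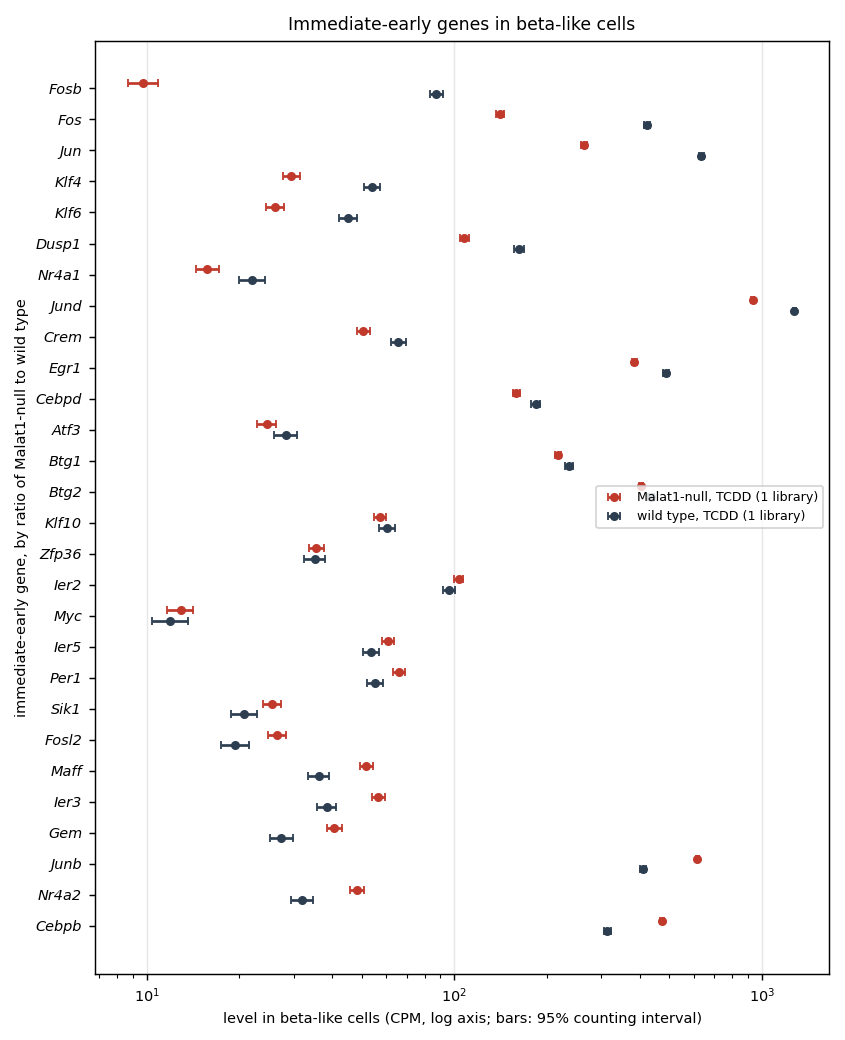
Levels of the 28 measured members in beta-like cells of the Malat1-null library and the wild-type library, in CPM on a log axis, ordered by their ratio; points are single libraries and bars 95% counting intervals. Fosb (9.74 against 87.3 CPM), Fos (141 against 422) and Jun (263 against 634) lie furthest apart, with Malat1-null cells lower.

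Among the AP-1 genes, Fos, which encodes the partner of the Jun proteins, had 4627 UMIs or 141 CPM in Malat1-null beta-like cells and 8000 UMIs or 422 CPM in wild-type beta-like cells, 3.00-fold lower (2.89 to 3.11). Fosb, a close relative of Fos whose transcript is short-lived, stood at 9.74 CPM in Malat1-null and 87.3 CPM in wild-type cells, 8.96-fold lower (7.95 to 10.1). Jun was at 263 CPM in Malat1-null and 634 CPM in wild-type cells, 2.41-fold lower (2.34 to 2.48). The other Jun genes did not follow: Junb was at 616 CPM in Malat1-null and 411 CPM in wild-type cells, a ratio of 1.499 (1.46 to 1.54) in the opposite direction. Jund, which is expressed without a stimulus in many tissues, was at 932 and 1273 CPM in Malat1-null and wild-type cells, a ratio of 0.732. Fosl2, a Fos relative with slower kinetics, was at 26.5 CPM in Malat1-null and 19.4 CPM in wild-type cells. Fosl1 stayed under 10 CPM in both, with 2.95 and 1.27 CPM.

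The lower Fos and Fosb levels stood in each beta-like cluster. Clusters 0 to 4 held most of these cells, unevenly: cluster 3, led by Slc2a2 and Ppp1r1a, had 523 Malat1-null and 57 wild-type cells, and cluster 1, led by Mt2 and Mt1, 277 and 343. Over these clusters Fos ran from 114 to 160 CPM in Malat1-null and from 364 to 561 CPM in wild-type cells. The clusters are parts of the same 2 libraries and not replicates, and genes outside the list were not compared in this way. Fosb ran from 3.95 to 14.7 CPM in Malat1-null and from 69.8 to 133 CPM in wild-type cells. Jun ran from 205 to 306 CPM and from 586 to 777 CPM. Some other members were less even. Junb was at 406 CPM in Malat1-null and 390 CPM in wild-type cells of cluster 0, and at 682 and 393 CPM in cluster 3. Egr1 was at 350 and 413 CPM in cluster 1 and at 292 and 530 CPM in cluster 3. In cluster 17, of 5 Malat1-null and 23 wild-type cells, Fos was at 293 and 450 CPM. A cluster led by Pdyn scored as beta but stayed unnamed because of its leading genes; its 13 Malat1-null and 131 wild-type cells had Fos at 76.2 and 401 CPM. Counting it as beta-like left 5 members lower and 3 higher, with Fosb 3.07 lower on the log2 scale. The share of all genes called with this cluster counted is not given here.

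Other gene groups differed between the same cells. The heat-shock genes Hspa1a, at 28.4 CPM in Malat1-null and 227 CPM in wild-type beta-like cells, and Hspa1b, at 20.0 and 192 CPM, were lower in Malat1-null cells, as were Dnajb1, Hsph1 and Hspb1 (5 of 15 listed heat-shock genes lower and 0 higher, beside 2.49% and 1.94% of all genes). Cells with at least 5 UMIs of Hspa1a and Hspa1b made up 0.733% of Malat1-null and 6.06% of wild-type beta-like cells. Without them Fos was 1.63 lower and Fosb 3.17 lower on the log2 scale, close to the 1.58 and 3.16 with them. The acinar markers, all 9 together, summed to 77.3 CPM in Malat1-null and 511 CPM in wild-type beta-like cells, with 1 and 0 of them at 0; T or NK markers summed to 0.913 and 1.48 CPM, with 2 and 5 of 10 at 0. The median mitochondrial share was 1.21% and 1.19%. The part of acinar RNA in the member levels was not tested.

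The zinc-finger genes moved less. Klf4, a stress-responsive factor, was at 29.5 CPM in Malat1-null and 53.9 CPM in wild-type beta-like cells, 1.83-fold lower (1.67 to 2.00), and Klf6 at 26.2 and 45.2 CPM, 1.73-fold lower (1.57 to 1.90). Without the cells rich in Hspa1a and Hspa1b, Klf6 was no longer beyond 1.5-fold. Egr1, which serum response factor induces in most cells together with Fos, was at 384 CPM in Malat1-null and 487 CPM in wild-type cells, a ratio of 0.788 that does not reach the limit. Klf10 was at 57.4 and 60.3 CPM, with an interval of the ratio that includes 1 (0.884 to 1.03). Klf2 had 12 UMIs in Malat1-null and 117 UMIs in wild-type beta-like cells, 0.365 and 6.17 CPM, below the minimum level. B cell markers, beside it, summed to 31.2 CPM in Malat1-null and 16.8 CPM in wild-type beta-like cells.

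Of the regulators, Dusp1, a phosphatase that inactivates MAP kinases, was at 108 CPM in Malat1-null and 162 CPM in wild-type beta-like cells, 1.51-fold lower (1.44 to 1.58), and was within 1.5-fold with TMM factors, at a minimum of 10000 UMIs per cell, with beta cells taken by markers alone and with the Pdyn-led cluster. Levels of the antiproliferative genes Btg1 (218 and 235 CPM in Malat1-null and wild type) and Btg2 (405 and 435 CPM), of Ier2 (103 and 96.1 CPM) and of Zfp36 (35.6 and 35.2 CPM), which promotes decay of AU-rich mRNAs, had ratios between 0.925 and 1.08. Ier3 was at 56.6 and 38.4 CPM and Gem, a small GTPase that inhibits calcium channels, at 40.8 and 27.4 CPM, with ratios of 1.48 and 1.49. Ier5 (60.8 and 53.6 CPM), Per1, a clock gene (66.1 and 55.3 CPM), and Sik1, a kinase induced by cyclic AMP (25.6 and 20.7 CPM), had ratios between 1.14 and 1.23. Crem, a CREB family gene that includes a repressor form, was at 50.6 CPM in Malat1-null and 65.6 CPM in wild-type cells.

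Cebpb, a factor of stress and inflammatory responses, was at 474 CPM in Malat1-null and 314 CPM in wild-type beta-like cells, a ratio of 1.51 (1.47 to 1.56), and Nr4a2, an orphan nuclear receptor, at 48.3 and 32.0 CPM, a ratio of 1.51 (1.37 to 1.66). Both calls sit at the limit: neither was made when levels were scaled to all UMIs or when cells were clustered at resolution 2. Nr4a1 ran the other way, with 15.7 CPM in Malat1-null and 21.9 CPM in wild-type cells. Cebpd (159 and 184 CPM), Atf3 (24.5 and 28.3 CPM), Maff (51.7 and 36.2 CPM) and Myc (12.9 and 11.9 CPM) were not apart. Npas4, a gene induced by calcium entry in neurons and beta cells, had 26 UMIs in Malat1-null and 50 UMIs in wild-type beta-like cells. Together with Npas4, 8 members missed the minimum level: Fosl1, Egr2, Egr3, Zfp36l1, Dusp2, Nr4a3 and Klf2.

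Upstream of these genes, 36 of 42 listed factors and kinases (among them Srf, Creb1, the Crtc coactivators and the MAP kinases) were measured in beta-like cells, and 0 were apart in either direction, beside 4.43% of all genes, a share so low that 0 of 36 is near the background. Srf was at 8.07 CPM in Malat1-null and 11.2 CPM in wild-type cells and Creb1 at 48.8 and 52.0 CPM. Of 20 listed feedback regulators, 16 were measured; Socs2 and Spry4 were higher in Malat1-null cells, while Rgs2 (30.3 and 50.7 CPM) and Socs3 (32.4 and 54.4 CPM) were lower. Of 34 other stimulus-induced genes, 25 were measured, with 10 higher and 2 lower, beside 1.94% higher and 2.49% lower of all genes. Id3 was at 44.7 CPM in Malat1-null and 17.1 CPM in wild-type cells, Nfkbia, the inhibitor of NF-kappaB, at 645 and 316 CPM, Pim3 at 88.0 and 40.8 CPM and Csrnp1 at 78.3 and 37.4 CPM. Tsc22d1, at 312 and 611 CPM, and Plk2, at 10.3 and 20.1 CPM, were the 2 lower. The median log2 ratio of that list was 0.14, against -0.09 for the 36 members' measured genes and 0.01 for all genes. Of 21 other bZIP genes, 16 were measured, with 2 higher and 1 lower: Mafa, a regulator of insulin transcription (790 and 420 CPM), and Atf4 (625 and 394 CPM) were higher in Malat1-null cells.

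The windows directly before the starts of 6 members are printed to show what the members that were lower together (Fos, Fosb, Jun) and, of the members in the pairs that varied together between cells, Fos, Junb, Btg2 and Dusp1 carry there; Egr1, Ier2 and Cebpd of those pairs are named only. They are the 250 bases upstream of the RefSeq start in GRCm38.p6, 5′ to 3′ on the strand of the gene: Fos at chr12:85473640-85473889 (plus strand), Fosb at chr7:19310046-19310295 (minus strand), Jun at chr4:95052223-95052472 (minus strand), Junb at chr8:84978749-84978998 (minus strand), Btg2 at chr1:134079156-134079405 (minus strand) and Dusp1 at chr17:26508473-26508722 (minus strand). Capitals mark CRE letters (TGACG or TGACGTCA, the site CREB binds) and the TATA box (TATAAA), on either strand.
Fos: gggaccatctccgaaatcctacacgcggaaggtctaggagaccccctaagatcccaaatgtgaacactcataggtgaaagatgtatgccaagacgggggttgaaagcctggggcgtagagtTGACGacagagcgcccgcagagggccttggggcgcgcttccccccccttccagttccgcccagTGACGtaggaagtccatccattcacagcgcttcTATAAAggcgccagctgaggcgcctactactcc
Fosb: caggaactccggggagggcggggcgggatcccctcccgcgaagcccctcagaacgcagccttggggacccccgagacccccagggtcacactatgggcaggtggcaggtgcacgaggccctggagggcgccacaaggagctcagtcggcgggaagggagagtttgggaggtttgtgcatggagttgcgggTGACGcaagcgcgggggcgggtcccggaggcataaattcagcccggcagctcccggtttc
Jun: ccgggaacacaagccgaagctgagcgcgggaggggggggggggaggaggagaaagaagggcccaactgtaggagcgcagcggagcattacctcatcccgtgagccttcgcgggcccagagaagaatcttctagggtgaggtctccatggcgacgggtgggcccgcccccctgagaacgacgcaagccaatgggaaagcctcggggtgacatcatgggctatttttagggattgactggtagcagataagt
Junb: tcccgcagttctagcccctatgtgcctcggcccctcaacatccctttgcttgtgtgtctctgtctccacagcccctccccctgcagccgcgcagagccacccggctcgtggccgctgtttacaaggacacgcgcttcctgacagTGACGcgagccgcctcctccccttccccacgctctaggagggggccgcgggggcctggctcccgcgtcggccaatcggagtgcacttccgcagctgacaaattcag
Btg2: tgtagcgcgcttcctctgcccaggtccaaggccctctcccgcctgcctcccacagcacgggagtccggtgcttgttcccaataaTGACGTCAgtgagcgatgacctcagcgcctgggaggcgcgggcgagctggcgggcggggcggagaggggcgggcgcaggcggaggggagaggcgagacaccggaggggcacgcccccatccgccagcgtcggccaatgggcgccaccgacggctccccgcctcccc
Dusp1: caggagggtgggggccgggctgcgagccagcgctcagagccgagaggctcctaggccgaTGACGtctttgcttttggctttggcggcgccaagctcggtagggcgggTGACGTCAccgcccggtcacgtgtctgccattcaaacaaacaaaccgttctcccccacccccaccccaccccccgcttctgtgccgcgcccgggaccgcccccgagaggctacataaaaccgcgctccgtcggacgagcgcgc

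Fos had TGACG at -129 to -125 and at -66 to -62 and TATAAA at -33 to -28, counted back from the start; the Fosb match was at -60 to -56 and the Junb match at -106 to -102. Btg2 and Dusp1 each held the full TGACGTCA, at -166 to -159 and at -143 to -136, and Dusp1 had a further TGACG at -191 to -187. In the Jun window none of these letters was found, which says only that these letters are not in this window. The 26 members with an entry had 33 windows, since some genes have several starts. TGACG stood in 21 of the 33 (63.6%), from 17 genes, beside 17.8% of all 32851 windows; a full site holds the short one on both strands and so counts in both. The full TGACGTCA stood in 3 of the 33 windows (9.09%; Btg2, Dusp1 and Maff) and in 1.55% of all windows. TATAAA stood in 4 member windows (12.1%) and 12.4% of all windows, and the AP-1 letters TGANTCA in 1 (Zfp36l1; 3.03%) and 6.75% of all windows. The CArG box, the site of serum response factor, was found in 5 member windows (15.2%), all of Egr2 and Zfp36, and in 1.47% of all windows. GCGTG, the core that the dioxin receptor binds, stood in 15 member windows (45.5%), Fos, Junb and Btg2 included, and in 28.2% of all windows. Windows of 1 gene can overlap. Base composition was not matched between these sets, and a match of letters is not a bound site.

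Across cell classes, the endothelial-like cells had the most immediate-early RNA, 10714 CPM in Malat1-null and 10752 CPM in wild type over the 36 genes, against 4450 and 5359 CPM in beta-like cells. Sums were 6994 and 7261 CPM in T or NK-like cells of Malat1-null and wild type, 4423 and 4898 in B cell-like, 4324 and 6024 in acinar-like and 4248 and 7376 in alpha-like cells. Each of these sums was lower in the Malat1-null library, by little in endothelial-like and T or NK-like cells. The median log2 ratio of the measured members was 0.02 in endothelial-like and 0.09 in T or NK-like cells, and negative in the other classes. Among the 6 classes, 12 members were highest in endothelial-like cells of both libraries, 5 in T or NK-like, 3 in alpha-like, 2 in B cell-like and 1, Cebpd, in beta-like cells. The other 13 peaked in a different class in each library. The share of all genes with their peak in each class was not computed, so these counts stand without a background. Among the members under the minimum level in beta-like cells, Fosl1 was highest in endothelial-like cells, at 112 and 74.1 CPM in Malat1-null and wild type, and Egr3 in B cell-like cells, at 11.6 and 28.9 CPM. Egr2 reached 16.2 CPM in Malat1-null T or NK-like cells and 5.78 CPM in wild-type B cell-like cells, and Nr4a3 9.34 CPM in Malat1-null endothelial-like and 12.7 CPM in wild-type T or NK-like cells. The highest Npas4 levels were 0.969 CPM, in Malat1-null alpha-like cells, and 2.64 CPM, in wild-type beta-like cells.

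**Figure D2:**
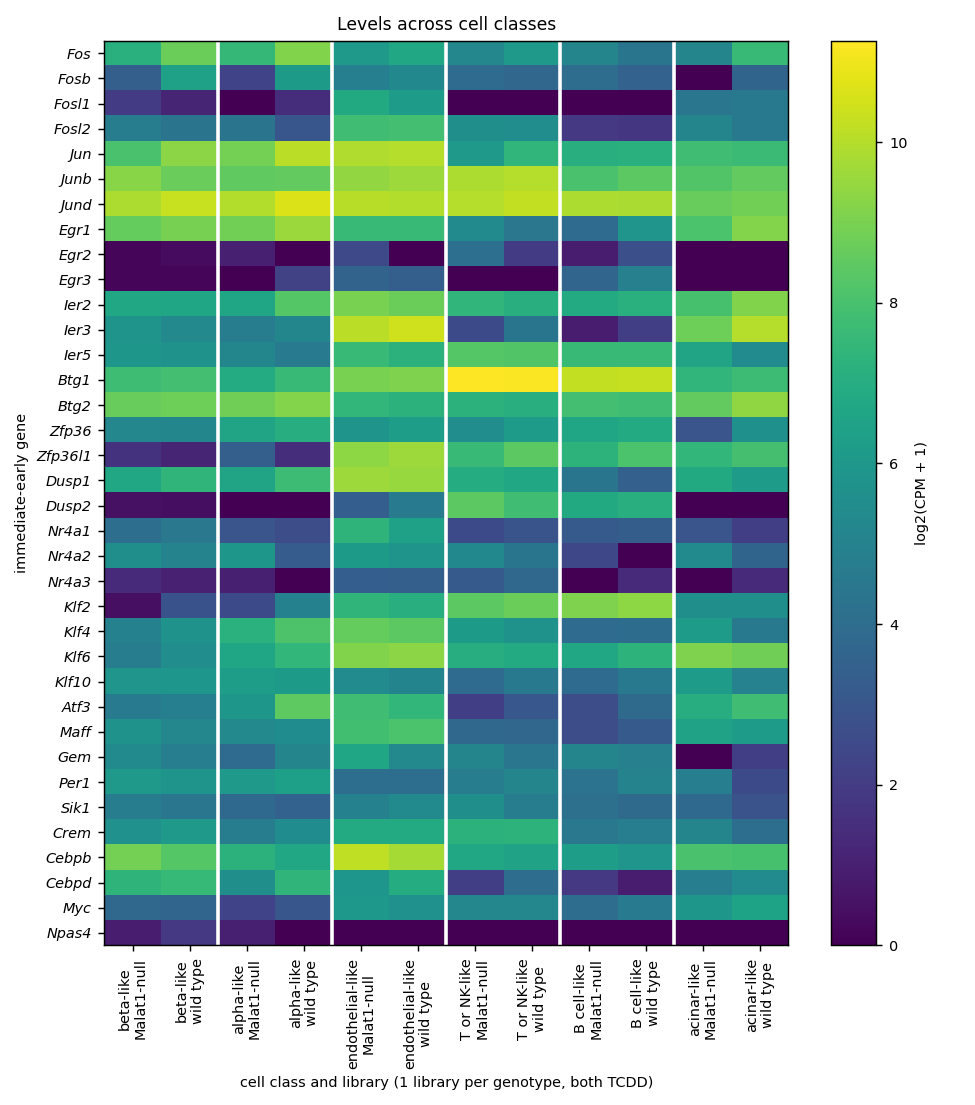
Levels of the 36 genes as log2(CPM + 1) in 6 cell classes, with the Malat1-null library left of the wild-type library in each class. Endothelial-like cells are bright for Ier3 (1079.8 and 1398 CPM), Cebpb and Zfp36l1, T or NK-like cells for Btg1 and Dusp2, and beta-like cells stay dark for Klf2, Dusp2 and Zfp36l1.

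Against beta-like cells, with at least 2-fold asked in both libraries, endothelial-like cells had 16 members higher and 3 lower of 31 measured, beside 14.5% higher and 29.5% lower of all genes. Ier3, which is induced by stress and cytokines, was at 1079.8 CPM in Malat1-null endothelial-like cells against 56.6 CPM in beta-like cells and at 1398 against 38.4 CPM in wild type. Zfp36l1, an RNA-binding relative of Zfp36, was at 641 and 790 CPM in Malat1-null and wild-type endothelial-like cells and under 3 CPM in beta-like cells. Klf6 (554 and 631 CPM), Klf4 (391 and 341 CPM) and Dusp1 (786 and 736 CPM) were likewise higher there, at 21.2-fold and 14.0-fold over beta-like cells for Klf6. Fos, Btg2 and Per1 were the 3 lower: Fos was at 66.9 and 107 CPM in Malat1-null and wild-type endothelial-like cells, ratios to beta-like cells of 0.475 and 0.254.

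In T or NK-like cells 8 members were higher and 10 lower of 31, beside 11% and 39.3% of all genes. Btg1 was at 2455 CPM in Malat1-null and 2330 CPM in wild type, 11.3-fold and 9.89-fold over beta-like cells. Dusp2, a phosphatase of activated lymphocytes, was at 339 and 224 CPM in T or NK-like cells of the 2 libraries, against 0.426 and 0.316 CPM in beta-like cells. Crem, Ier5, Klf2, Klf6, Myc and Zfp36l1 were the other higher members. B cell-like cells had 7 higher and 13 lower of 31, beside 10.2% and 47.1% of all genes; Klf2, a quiescence factor of lymphocytes, was at 542 CPM in Malat1-null and 647 CPM in wild type. Egr1 was lower than in beta-like cells in both lymphocyte classes, at 40.4 and 21.2 CPM in Malat1-null and wild-type T or NK-like cells and at 14.3 and 57.8 CPM in B cell-like cells. Nr4a2 was at 4.48 CPM in Malat1-null B cell-like cells and had 0 UMIs in wild-type ones.

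Acinar-like cells had 7 members higher and 4 lower of 29, beside 3.27% and 15.1% of all genes: Ier3 (438 and 1043 CPM in Malat1-null and wild type), Klf6, Zfp36l1, Myc, Atf3, Fosl1 and Ier2 were higher. Their median depth was 1875 and 1631.5 UMIs per cell, and Malat1 in wild-type acinar-like cells was at 631 per 1000000 UMIs, under the 9699.8 of beta-like cells. Alpha-like cells had the fewest members apart from beta-like cells, with 4 members higher (Atf3, Klf4, Klf6 and Zfp36) and 2 lower (Nr4a1 and Cebpb) of 27, beside 3.87% and 9.61% of all genes. Klf4 was at 144 CPM in Malat1-null and 280 CPM in wild-type alpha-like cells, 4.89-fold and 5.19-fold over beta-like cells. Scaling to all UMIs moved these counts, to 12 higher and 0 lower in alpha-like and 15 higher and 2 lower in T or NK-like cells. The shares of all genes under that scaling were not computed.

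Between genotypes, alpha-like cells showed the lower members most broadly. Of 27 measured, 14 were lower and 1 higher in Malat1-null alpha-like cells, beside 3.28% lower and 5.13% higher of all genes (8.41% in either direction), and the median log2 ratio was -0.71 for the members and 0.08 for all genes. Fos was at 182 CPM in Malat1-null and 563 CPM in wild-type alpha-like cells, a ratio of 0.324 (0.269 to 0.389), close to the 0.334 of beta-like cells. Fosb rested on 4 UMIs in Malat1-null and 40 UMIs in wild-type cells, 3.88 and 70.4 CPM. Jun was at 476 and 1100 CPM, a ratio of 0.433 (0.384 to 0.488). Members near 1 in beta-like cells were lower here as well: Atf3, a stress-induced repressor, was at 61.0 CPM in Malat1-null and 354 CPM in wild-type cells, and Ier2 at 102 and 310 CPM. Cebpd (47.5 and 162 CPM), Dusp1, Egr1, Jund, Btg1, Gem, Klf2, Klf4 and Klf6 were the others. Klf2 rested on 5 UMIs in Malat1-null and 17 UMIs in wild-type cells, with 9 of the latter in a single cell. The 1 higher was Nr4a2, with 63 UMIs in Malat1-null and 5 UMIs in wild-type cells, 61.0 and 8.80 CPM. These values come from 80 Malat1-null and 30 wild-type cells of median depths 15625.5 and 27171 UMIs. The 10 beta markers summed to 27518 and 5159 CPM in them, with 0 and 3 at 0. The 9 acinar markers summed to 66.9 and 825 CPM, with 2 and 1 at 0. The 5 PP markers summed to 93342 and 56787 CPM, with 1 and 0 at 0. The 5 delta markers summed to 43643.5 and 41346 CPM, with 2 and 2 at 0. The 9 ductal markers summed to 2622 and 5703 CPM, with 3 and 2 at 0. These sums overlap, since Pyy is in both the PP and the delta list and Tspan8 in both the PP and the ductal list. The part of such RNA in the member levels was not tested. Whether the wider set of lower members in alpha-like than in beta-like cells is a difference between the classes was not tested.

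**Figure D3:**
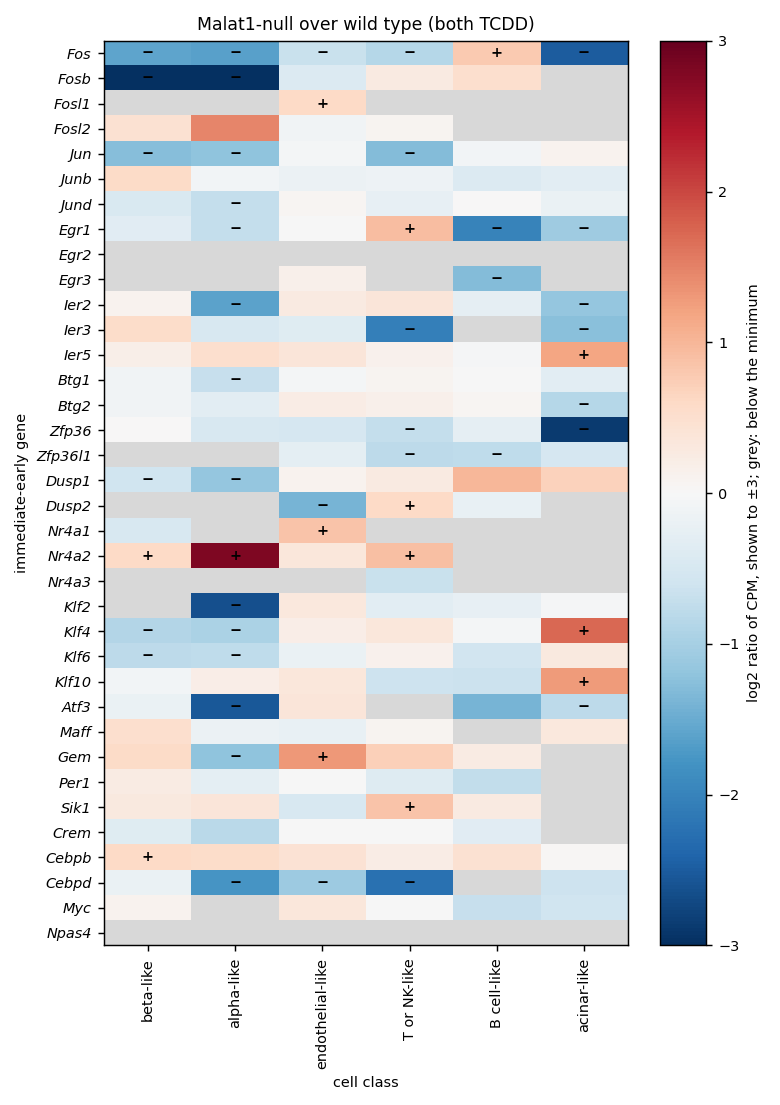
The log2 ratio of Malat1-null to wild type for the 36 genes in 6 cell classes, on a colour scale that stops at 3 in both directions; plus and minus mark members past the 1.5-fold rule and grey those under the minimum level. Minus signs are most frequent in the alpha-like column (14 of 27 measured), and Fos carries a minus sign in 5 of the 6 classes.

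In the other classes the members did not move one way, and more of all genes were apart. T or NK-like cells had 6 members lower and 4 higher of 30 measured, beside 7.33% lower and 2.84% higher of all genes (10.2% in either direction). Fos (35.5 and 64.2 CPM in Malat1-null and wild type), Jun (67.8 and 168 CPM), Zfp36l1 (199 and 340 CPM), Zfp36, Ier3 and Cebpd were lower, and Dusp2, Egr1, Nr4a2 and Sik1 higher; none of the 4 higher calls was left among cells of at least 5000 UMIs. B cell-like cells had 3 lower (Egr1, Egr3 and Zfp36l1) and 1 higher of 26, beside 7.93% and 2.23% (10.2%); the higher one was Fos, on 38 UMIs in Malat1-null and 24 UMIs in wild-type cells, with an interval from 1.004 to 2.99. Endothelial-like cells had 3 lower (Fos, Cebpd and Dusp2) and 3 higher (Nr4a1, Gem and Fosl1) of 33, beside 11% and 6.14% (17.2%). Nr4a1 there was at 157 CPM in Malat1-null and 86.9 CPM in wild type. Jun was at 980 and 1029 CPM in these cells and so not apart. Acinar-like cells had 7 lower and 3 higher of 22, beside 3.48% and 18.4% (21.9%), with the median log2 ratio of all genes at 0.32; Fos had 5 UMIs in Malat1-null and 118 UMIs in wild-type cells. Fos was thus lower in Malat1-null cells of 5 classes, and Fosb, measured in 5, was called only in beta-like and alpha-like cells.

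Free RNA outside cells was read from barcodes with few UMIs, whose values depend on the range taken. In barcodes of 30 or more but under 100 UMIs, Fos was at 120 CPM in the Malat1-null library and 235 CPM in the wild-type library, and Fosb at 44.0 and 112 CPM. From 100 to under 300 UMIs, Fos was at 116 and 108 CPM, the wild-type value on 26 UMIs, and Fosb at 7.55 and 33.4 CPM. From 300 to under 1000 UMIs, Fos was at 107 and 169 CPM, and Fosb had 0 UMIs in Malat1-null and 1 UMI in wild type. Fos in beta-like cells, at 141 CPM in Malat1-null and 422 CPM in wild type, was above each of these values of its own library. Fosb in beta-like cells, at 9.74 CPM in Malat1-null and 87.3 CPM in wild type, was below the value from 30 to under 100 UMIs and above the other 2. In barcodes of 1 to 9 UMIs, Fos was at 185 CPM in Malat1-null and 416 CPM in wild type, and Fosb at 73.5 and 172 CPM. All barcodes of 10 to 100 UMIs gave 496 and 527 CPM for Fos and 309 and 351 CPM for Fosb. Each of these last values was above the beta-like level of its own library. Barcodes of 10 or more but under 30 UMIs held Malat1 at 12653 CPM in the Malat1-null and 13349 CPM in the wild-type library, so in the Malat1-null library they go against the label.

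Cell by cell, each beta-like cell of at least 10000 UMIs was thinned to 10000, which kept 1699 of 1774 Malat1-null and 749 of 776 wild-type cells. The 10000 UMIs include hormone RNA, and the genes that CPM counts made up 35.0% of Malat1-null and 39.8% of wild-type beta-like UMIs. Values per thinned cell were not corrected for this. A thinned cell held UMIs of a median of 7 members in Malat1-null and 8 in wild type, and a median sum of 14 and 19 UMIs, with the highest cell at 98 and 152. Fos was seen in 31.7% of Malat1-null cells (29.5 to 34.0) and 53.3% of wild-type cells (49.6 to 56.9); before thinning the shares over all beta-like cells were 62.7% and 78.5%. Fosb was seen in 3.65% (2.81 to 4.65) and 20.0% (17.2 to 23.1), and Jun in 48.3% and 75.6%. For the members that were not lower, Junb was seen in 71.3% of Malat1-null and 65.8% of wild-type cells and Cebpb in 74.5% and 64.2%. In B cell-like cells, where Fos was at 34.0 and 19.8 CPM, a Fos UMI stood in 11.4% of Malat1-null and 10.3% of wild-type cells, at median depths of 4062 and 6285 UMIs.

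**Figure D4:**
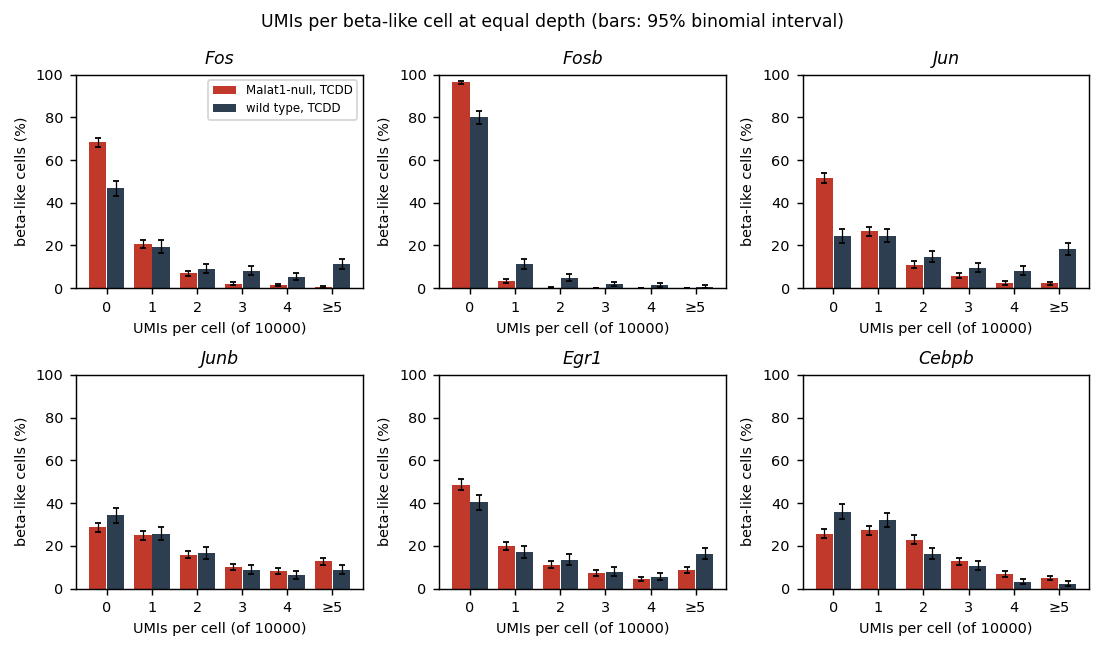
Share of beta-like cells, in percent, by number of UMIs of 6 members in a cell thinned to 10000 UMIs, for Malat1-null and wild type, with 95% binomial intervals. Cells with 5 or more Fos UMIs were 0.471% in Malat1-null and 11.3% in wild type, while Junb and Cebpb shift slightly the other way.

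Cells with many Fos UMIs were rarer in Malat1-null. Cells with at least 5 Fos UMIs numbered 8 of 1699 in Malat1-null (0.471%, 0.204 to 0.926) and 85 of 749 in wild type (11.3%, 9.17 to 13.8), whereas cells with exactly 1 made up 20.8% and 19.5%. Jun behaved likewise, with 2.30% of Malat1-null and 18.4% of wild-type cells at 5 or more. For Junb that share was 12.7% in Malat1-null and 8.68% in wild type. The variance of Fos over its mean was 1.76 in Malat1-null and 4.02 in wild type, where 1 is the value of counting error alone, and 10% of the cells held 54.4% and 46.8% of the Fos UMIs. Both measures change with the mean, which was 0.497 and 1.68 Fos UMIs per thinned cell, and were not adjusted for it. Jund was even over most cells, seen in 92.9% and 98.0%, yet single wild-type cells reached 67 Jund UMIs and its variance over its mean was 1.62 and 6.83. Egr3 had 4 UMIs over all Malat1-null and 2 UMIs over all wild-type beta-like cells before thinning.

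Between beta-like cells, Egr1 varied together with Junb, Fos, Btg2 and Ier2 in both libraries. Pearson r was taken over log2(UMIs + 1) of the thinned cells, in each library alone, for the 26 members with a mean of at least 0.05 UMIs in both. Of 325 pairs, 12 (3.69%) reached an r of 0.2 in both libraries, beside 0.00906% of 32971260 pairs among 8121 genes. Of these 12, 2 were left when cells were thinned to 5000 UMIs and 6 by Spearman's rho. The median r was 0.068 in Malat1-null and 0.054 in wild type over member pairs, and 0.0101 and 0.0106 over all pairs. Levels were not matched between the member pairs and all pairs, and the part of level in these values was not tested. Fos with Egr1 had r of 0.31 in Malat1-null and 0.42 in wild type, Junb with Egr1 0.35 and 0.30, Egr1 with Btg2 0.29 and 0.31, Fos with Btg2 0.29 and 0.35, and Junb with Btg2 0.33 and 0.27. The other 7 joined Ier2 with Egr1, Junb, Btg2 and Fos, Dusp1 with Junb and Egr1, and Cebpd with Junb. Egr1 with Dusp1 was just inside the limit, at 0.20004 and 0.214, and Junb with Maff just outside it, at 0.233 and 0.196. Junb and Egr1 took part in 5 pairs each, Btg2 and Ier2 in 4 and Fos in 3.

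**Figure D5:**
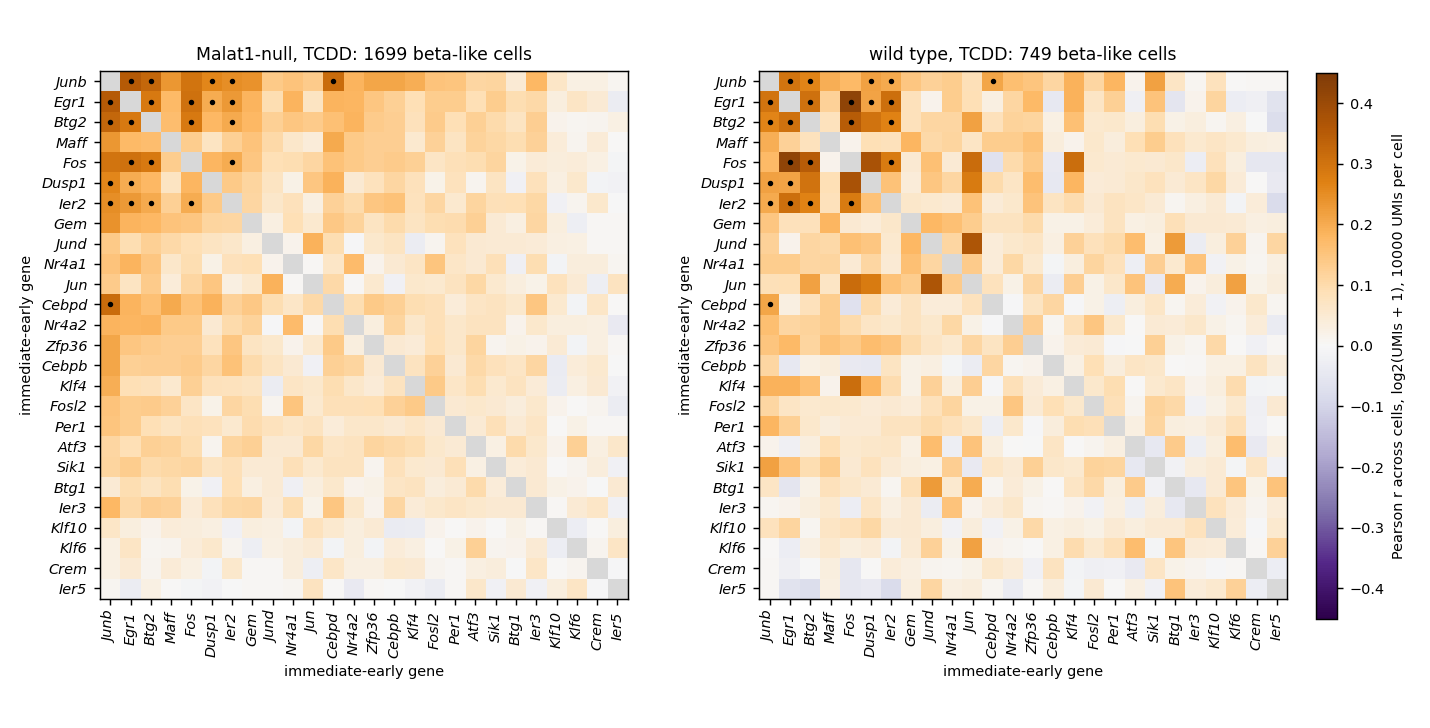
Pearson r between 26 members across beta-like cells thinned to 10000 UMIs, for 1699 Malat1-null cells on the left and 749 wild-type cells on the right, members ordered by their median r; dots mark the 12 pairs with r of at least 0.2 in both. The dots lie in the corner of Junb, Egr1, Btg2, Fos, Dusp1 and Ier2, plus Cebpd with Junb, and Jun with Jund is dark in wild type alone (0.37, against 0.19 in Malat1-null).

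Some pairs were of unequal strength in the libraries. Fos with Dusp1 had r of 0.18 in Malat1-null and 0.37 in wild type, Jun with Jund 0.19 and 0.37, and Fos with Junb 0.30 and 0.17; these differences were not tested, and Fos means per thinned cell were 0.497 and 1.68 UMIs. Fosb, too rare in Malat1-null cells for the comparison, had in wild-type cells r of 0.44 with Fos, 0.31 with Jun, 0.30 with Egr1 and 0.23 with Klf4. Cells with a Fos UMI also held Egr1 more often than those without, 67.9% against 43.6% in Malat1-null and 74.4% against 42.9% in wild type. For Btg2 these shares were 78.1% against 61.1% in Malat1-null and 78.7% against 56.9% in wild type. Cebpb in wild-type cells did not follow Fos, with 60.2% of cells with Fos and 68.9% of those without. Ier5, Crem, Klf6 and Klf10 had median r with the other members between 0.002 and 0.046 in both libraries.

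The summed members had an r with the cell's UMI total before thinning of -0.0003 in Malat1-null and -0.168 in wild type. With the mitochondrial share it was 0.058 and 0.104, with the summed heat-shock genes 0.171 and 0.239, and with summed Ins1 and Ins2 -0.217 and -0.205; these measures and the members share the same cells and UMIs. Among 8095 genes outside the list, those most like the summed members in both libraries included Errfi1, a feedback inhibitor of the EGF receptor (r 0.220 in Malat1-null and 0.193 in wild type), Irs2, a cyclic AMP and glucose-induced adaptor of insulin signalling (0.236 and 0.191), and C2cd4b (0.319 and 0.188). Dusp5, Gadd45b, Hspa8, Csrnp1, Tent5a and Ccnl1 were also among the leading 10, with r between 0.172 and 0.244.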

How the data were processed

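Per the labels, cultured islet cells were sequenced with 10x 3-prime chemistry; the deposited matrices are unnormalized UMI counts of every barcode, before any cell filter. Per the file headers the authors made them with Cell Ranger 4, while the submitters' processing notes name Cell Ranger 2.1.0 and mm10; which one applies could not be settled. Of 4 samples, 2 matrices were analysed here. Barcodes of at least 1000 UMIs and at most 20% mitochondrial UMIs were kept, scrublet doublets removed, and cells clustered (scanpy 1.11.5, igraph 0.11.9; 2000 variable genes, 30 components, 15 neighbours, Leiden resolution 1) without the 36 genes, related lists, Malat1, sex-linked and mitochondrial genes. Clusters were named from 14 marker lists; a cluster whose leading genes held markers of another class stayed unnamed. UMIs were summed per class and library and scaled to CPM as defined in the report, leaving out 61 genes. The call rule, thinning and correlations were checked on simulated data, in which class sums held no spread between cells. How often the exact Poisson, binomial and conditional ratio intervals hold the true value was not checked. Alternatives were scaling to all UMIs or by TMM factors (edgeR 4.0.16), other UMI and CPM minimums, 2-fold, clustering resolution 2, beta cells taken by markers alone, other thinning depths and Spearman's rho. Genes named in full were members of at least 10 CPM in beta-like cells, members of related lists past the rule (at most 6) and the 10 genes most like the summed members. Some results that this rule selects are not reported here. The members and lists were chosen with earlier results of these data known. No depth correction was made to summed levels; deeper classes have narrower intervals. UMIs of free RNA remain in all classes.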

Additional observations from a re-analysis of the deposited data

Results flagged for a closer look

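Members past the 1.5-fold rule in opposite directions in different classes of the same libraries were picked out; these differences between classes were not tested. Fos had log2 ratios of Malat1-null to wild type of 0.78 in B cell-like cells, on few UMIs, and of -1.58 in beta-like, -1.63 in alpha-like, -0.85 in T or NK-like, -0.68 in endothelial-like and -2.49 in acinar-like cells. Egr1 was at 0.93 in T or NK-like cells, -2.01 in B cell-like, -1.08 in acinar-like and -0.71 in alpha-like cells. Klf4 was at 1.73 in acinar-like cells, on 11 Malat1-null and 14 wild-type UMIs, and at -0.87 in beta-like and -0.95 in alpha-like cells. Gem was at 1.31 in endothelial-like and -1.20 in alpha-like cells. Dusp2 was at 0.60 in T or NK-like and -1.40 in endothelial-like cells.

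Barcodes of 10 or more but under 30 UMIs, which enter no comparison of cells, held more Fos and Fosb than any named class of the 6 compared. Fosb was at 1316 CPM in the Malat1-null library and 773 CPM in the wild-type library, and Fos at 1912 and 1043 CPM. The same barcodes had Malat1 at 12653 CPM in the Malat1-null library and 13349 CPM in the wild-type library, while barcodes of 10000 UMIs or more in the Malat1-null library had 1.10 CPM. These barcodes of the library labelled Malat1-null thus go against its genotype, their source was not settled, and no difference between genotypes is drawn from them. They numbered 18090 in the Malat1-null and 30994 in the wild-type library.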

How the results depend on the processing

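No paired analysis was possible because each genotype has 1 library. The shares of all genes called, as given above, belong to the main setting. None is given beside the counts of members called under other settings. Of the members apart in beta-like cells, Fos, Fosb and Jun were lower under every setting tried, including 2-fold, where 3 were lower and 0 higher. The count of higher members was least stable: 0 when scaled to all UMIs and at clustering resolution 2, 1 at a minimum of 50 CPM and 4 with TMM factors or with no minimum level; the cause was not tested. Cells of at least 5000 UMIs gave 0 higher members in T or NK-like cells, 0 higher and 7 lower in B cell-like cells and 2 higher in alpha-like cells; scaling to all UMIs also gave 2 higher in alpha-like cells. Against beta-like cells, scaling to all UMIs gave 15 higher and 2 lower in T or NK-like, 6 lower in B cell-like, 0 lower in endothelial-like and 12 higher and 0 lower in alpha-like cells, and a minimum of 5000 UMIs 1 lower in alpha-like cells; acinar-like cells were too few for that minimum in a library. Pairs numbered 2 of 210 when thinned to 5000 UMIs, 64 without thinning, all 12 among them, and 6 by Spearman's rho, all among the 12. Of all gene pairs, 0.00351% were called when thinned to 5000 UMIs, 0.273% without thinning and 0.00853% by Spearman's rho. The median number of members per beta-like cell was 5 in Malat1-null and 6 in wild type at 5000 UMIs and 15 and 17 without thinning. Adding the Pdyn-led cluster, leaving out cells rich in Hspa1a and Hspa1b, and reading free RNA from barcodes of 100 or more but under 300 UMIs were chosen after seeing the data. The last gave Fos at 116 CPM in Malat1-null and 108 CPM in wild type, Fosb at 7.55 and 33.4, Jun at 237 and 305 and Egr1 at 196 and 242 CPM, against 496 and 527, 309 and 351, 625 and 653, and 558 and 570 CPM at 10 to 100 UMIs; the cause was not tested. Intervals and depth cover counting error in 1 library per genotype.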
